A study of Sorghum bicolor with 24 samples.

Results

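CSLF6 is the sorghum cellulose synthase-like F6 gene, Sobic.007G050600. It was chosen by its identifier, 1 gene of the 34117 in the deposited count table, and its level was followed over all 24 libraries. In grasses, cellulose synthase-like F enzymes make mixed-linkage glucan, an unbranched glucose polymer of the cell wall in which runs of cellulose-like linkages are broken by single linkages of another kind. In rice and barley, CSLF6 is the main synthase of this polymer, and plants that lack it hold little mixed-linkage glucan in vegetative tissue. The polymer is abundant in the walls of young, elongating grass tissue and of the cereal endosperm.

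The plants were Sorghum bicolor cv. Wray, untreated and of 1 genotype, grown under 14-h days and taken in the vegetative phase at 74 days. Stem pieces came from phytomer 8, the youngest internode to have finished elongating, of 4 plants. Laser capture of 20 µm cryosections gave 5 types: epidermis (the outer cell layer), pith parenchyma (thin-walled cells of the stem centre), phloem, vascular parenchyma and xylem sclerenchyma (thick-walled fibres). The type titled vascular parenchyma appears in the collection protocol as xylem parenchyma. Whole stem from those internodes was sequenced without laser capture, and each of the 6 groups had 4 libraries. The labels do not say which library came from which plant, so p-values measure the spread between libraries.

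Library totals were 2769555 to 38880291 counts after capture and 16189208 to 29605470 in whole stem. Captured libraries had 10439 to 17125 genes at more than 1 CPM (the count scaled to a library total of 1000000), compared with 18421 to 18799 in whole stem. The lowest numbers were in epidermis replicate 1 (10439), epidermis replicate 2 (10911) and phloem replicate 3 (11021). The captured tissues were not checked against marker genes here, because no source used here pairs these identifiers with gene names. For the same reason the other genes of mixed-linkage glucan synthesis and breakdown were not analysed.

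CSLF6 was transcribed in every group. It had 286 to 8616 counts per library, and in each library at most 24.4% of the genes with any count were more abundant. Among the 19502 genes that passed the low-count filter over the captured libraries, its mean of 182 CPM lay at the 95.6th percentile, with a median gene at 18 CPM (levels not divided by gene length). Its highest level was in pith parenchyma by the mean and in whole stem by the median, and its lowest was in xylem sclerenchyma by both.

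Pith parenchyma held the highest single library. CSLF6 was at 191 CPM in replicate 1, 770 in replicate 2, 185 in replicate 3 and 151 in replicate 4, a mean of 324 ± 298 (SD, n = 4). Replicates 1, 3 and 4 lay close together and replicate 2 stood far above them, where only 0.644% of the genes with counts were more abundant than CSLF6. Without replicate 2 the pith parenchyma mean was 176 ± 21.6 CPM (SD, n = 3).

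Whole stem gave the most even values. They were 347, 262, 233 and 210 CPM in replicates 1 to 4, with a mean of 263 ± 59.9 (SD, n = 4) and a coefficient of variation of 22.7%. Of the 20 captured libraries, 15 lay below the lowest whole stem library and 1, pith parenchyma replicate 2, lay above the highest.

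Vascular parenchyma had 178, 118, 250 and 220 CPM in replicates 1 to 4. The mean was 192 ± 57.5 CPM (SD, n = 4), and no library stood apart. Epidermis had 269, 101, 73.9 and 203 CPM, with a mean of 162 ± 90.6 (SD, n = 4). Its libraries spread over a 3.64-fold range, and the highest was replicate 1, which also had the fewest detected genes.

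Phloem had 125, 78.2, 265 and 116 CPM in replicates 1 to 4, with a mean of 146 ± 82 (SD, n = 4). Replicate 3, the phloem library with the fewest detected genes, was the high one, and the mean of the other 3 was 106 ± 24.7 CPM. Xylem sclerenchyma had 116, 82.2, 41.4 and 99.2 CPM, with a mean of 84.6 ± 31.9 (SD, n = 4), 32.2% of the whole stem mean. All 4 of its libraries lay below every pith parenchyma, vascular parenchyma and whole stem library, and overlapped with epidermis and phloem.

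**Figure D1:**
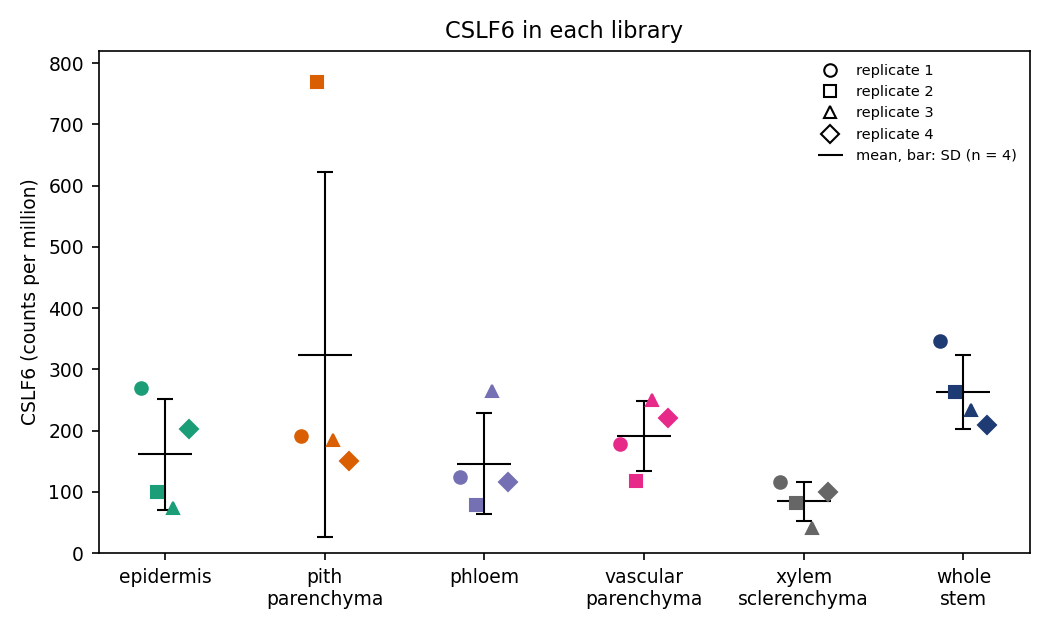
CSLF6 in CPM (linear axis) in each of the 24 libraries, by group, with the marker giving the replicate number, the horizontal line the mean and the bar the SD (n = 4). Pith parenchyma replicate 2, at 770 CPM, stands above all others, and the 4 xylem sclerenchyma libraries, at 41.4 to 116 CPM, lie below every pith parenchyma, vascular parenchyma and whole stem library.

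By the mean, the order was pith parenchyma, whole stem, vascular parenchyma, epidermis, phloem and xylem sclerenchyma. By the median it was whole stem (248 CPM), vascular parenchyma (199), pith parenchyma (188), epidermis (152), phloem (120) and xylem sclerenchyma (90.7). No 2 neighbours in the order of the means differed beyond their spread in edgeR's quasi-likelihood test. From the top of that order to the bottom, the Benjamini-Hochberg adjusted p of the 5 neighbouring pairs was 0.841, 0.634, 0.782, 0.877 and 0.749. Both orders end with epidermis, phloem and xylem sclerenchyma, while the first 3 places differ between them.

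Counting error was small beside these differences. The shallowest measurement, phloem replicate 2 with 286 counts, had a 95% exact binomial interval of 69.4 to 87.8 CPM, and the lowest level, xylem sclerenchyma replicate 3 with 1165 counts, one of 39 to 43.8 CPM. Reads carry no molecular identifiers, so these intervals cover counting error only. The shallowest library, phloem replicate 1 with 2769555 counts, was at 125 CPM and the deepest, epidermis replicate 3 with 38880291, at 73.9. With every library thinned at random to the smallest total, the group means ran from 83 CPM in xylem sclerenchyma to 318 in pith parenchyma, in the same order as without thinning.

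**Figure D2:**
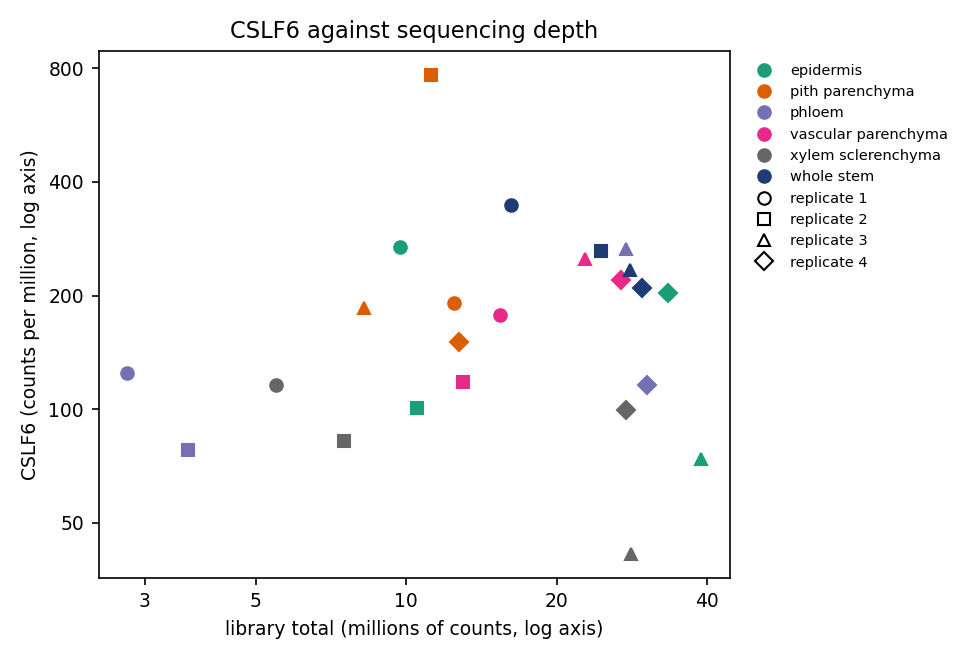
CSLF6 in CPM against the library total, both on log axes, for the 24 libraries, with colour for the group and marker shape for the replicate number. The deepest library, epidermis replicate 3, is at 73.9 CPM and the highest level, 770 CPM in pith parenchyma replicate 2, is in a library of 11193692 counts.

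Whether CSLF6 differed between the cell types was asked first over the 5 captured types together. It was not called in edgeR's quasi-likelihood F test (F = 3.43, unadjusted p = 0.0264, Benjamini-Hochberg adjusted p = 0.113), a test that called 16% of 19502 genes at the adjusted threshold of 0.05. Of the variance of log2 CPM over the 20 libraries, 39.9% lay between types, and for the median tested gene 34.2%. This share was not corrected for the number of types, so spread between libraries adds to it. The rest of the variance was spread between libraries of a type, for CSLF6 a pooled SD of 0.79 on the log2 scale. That SD was at the 15.4th percentile of the tested genes, and the distance between the highest and lowest type mean, 1.68 on the log2 scale, at the 20th. The F statistic was at the 76.1st percentile and the share of variance between types at the 58.9th. These percentiles are over genes of all levels, with a median of 18 CPM against 182 for CSLF6. Genes were not matched to CSLF6 by level.

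**Figure D3:**
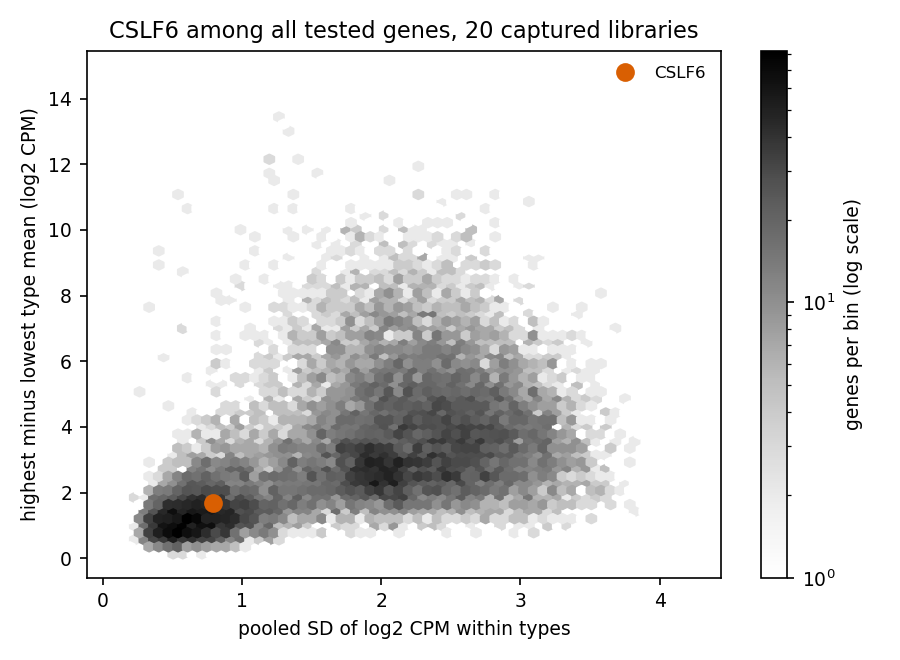
All 19502 genes tested over the 20 captured libraries, by pooled SD of log2 CPM within types (horizontal axis) and by the distance between the highest and lowest type mean of log2 CPM (vertical axis), with darker bins holding more genes on a log scale. CSLF6, the orange point, is at 0.79 and 1.68, in the dense lower left corner. The genes shown are of all levels and were not matched to CSLF6 by level.

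The 10 pairwise contrasts showed where the types lay relative to each other. The widest was between pith parenchyma and xylem sclerenchyma, where the libraries did not overlap. The log2 difference was 1.84 (SE 0.53, 95% interval 0.75 to 2.94), with pith parenchyma the higher. The Benjamini-Hochberg adjusted p from edgeR was 0.0609, so it missed the threshold, while 2.89% of the tested genes passed. Without pith parenchyma replicate 2 the log2 difference was 1.03 (adjusted p 0.277, same edgeR test). In the exact two-sided permutation test of mean log2 CPM, this pair reached p = 0.0286, the smallest that 4 against 4 libraries allow, and 0.143 after adjustment over the 15 comparisons made. The 4 and 4 libraries of this pair did not overlap for 15.3% of all tested genes.

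Vascular parenchyma and xylem sclerenchyma, which neighbour each other in the vascular bundle, did not overlap either. The log2 difference was 1.29 (SE 0.52, 95% interval 0.21 to 2.37), and edgeR gave a Benjamini-Hochberg adjusted p of 0.388. Only 0.0308% of the tested genes were called between these types, and 10.1% had libraries that did not overlap. The same exact permutation test gave p = 0.0286, and 0.143 adjusted over the 15 comparisons.

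The other 8 pairs overlapped, and CSLF6 was called in none of them by edgeR, with adjusted p-values of 0.226 to 0.955. Pith parenchyma minus phloem had an unadjusted p under 0.05 in that test, with a log2 difference of 1.1 (95% interval 0.03 to 2.18, adjusted p 0.226). It became 0.29 without pith parenchyma replicate 2, and in replicates 3 and 4 alone it was -0.23. Epidermis and phloem were the closest pair, at a log2 difference of 0.21, with an interval of -0.85 to 1.27 that leaves room for more than a 2-fold difference in favour of epidermis. Of all tested genes, epidermis had 2.56% called against pith parenchyma, 8.63% against phloem, 10.2% against vascular parenchyma and 5.63% against xylem sclerenchyma. Pith parenchyma had 5.55% called against phloem and 7.22% against vascular parenchyma. Phloem had 0.174% called against vascular parenchyma and 0.492% against xylem sclerenchyma.

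Each captured type was then set against the same 4 whole stem libraries, so the 5 comparisons share their controls. CSLF6 was lower in xylem sclerenchyma than in whole stem, by 2.88-fold. The log2 difference was -1.52 (SE 0.28, 95% interval -2.17 to -0.88), and edgeR gave a Benjamini-Hochberg adjusted p of 0.0111. The 4 and 4 libraries did not overlap. Of 19880 genes tested, 9.77% were called, 7.47% as lower in xylem sclerenchyma, and the libraries of 24.6% did not overlap.

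The call of xylem sclerenchyma against whole stem held in all 8 omissions of 1 library, with log2 differences of -1.7 to -1.31 and adjusted p-values of 0.00861 to 0.0413 in the same edgeR test. DESeq2 and limma voom with quality weights also called it, at adjusted p-values of 3.16e-05 and 0.0261. In the exact two-sided permutation test of mean log2 CPM the p was 0.0286, the smallest these group sizes allow. After adjustment over the 15 comparisons it was 0.143, which misses the threshold. An adjusted p under 0.05 would need most of the 15 comparisons to reach that smallest p. Xylem sclerenchyma against whole stem was also not called with all 24 libraries in 1 fit, where the log2 difference was -1.51 and edgeR's adjusted p 0.171. With the replicate number as a block, the log2 difference was -1.57 and edgeR's adjusted p 0.0684, again not called. Whether replicate numbers pair the libraries was not settled. Correlations of deviations from group means averaged 0.017 between libraries of the same number, with no test against chance. The mean between different numbers, -0.0055, is no independent baseline, because deviations within a group cancel out by construction. Totals in xylem sclerenchyma were lower in replicates 1 and 2 than in 3 and 4, as in every other group except pith parenchyma. Within these sets edgeR gave log2 differences of -1.47 (adjusted p 0.137) and -1.58 (adjusted p 0.18), with 2 libraries per group. Laser capture and cell type both separate these groups, and their parts in the difference cannot be told apart. Fewer transcribing cells and less CSLF6 RNA per cell cannot be told apart in pooled tissue either.

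The other 4 types were not called against whole stem by edgeR's test. The log2 difference was -0.77 in phloem (95% interval -1.63 to 0.09, adjusted p 0.25 with Benjamini-Hochberg adjustment, 14.3% of tested genes called). Without phloem replicate 3 it was -1.26, with an adjusted p of 0.00785 in the same edgeR test, so edgeR's call turned on that library. With all 8 libraries, limma voom with quality weights gave -1.18 (adjusted p 0.0262), so the call also differed by method. Epidermis was at -0.55 (-1.44 to 0.33, adjusted p 0.522, 12.8% called) and vascular parenchyma at -0.24 (-0.87 to 0.39, adjusted p 0.634, 21.5% called), both by edgeR. Pith parenchyma was at 0.34 (-0.79 to 1.48, adjusted p 0.841, 4.68% called). Its direction rested on replicate 2, since without that library edgeR gave -0.49 (adjusted p 0.149).

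**Figure D4:**
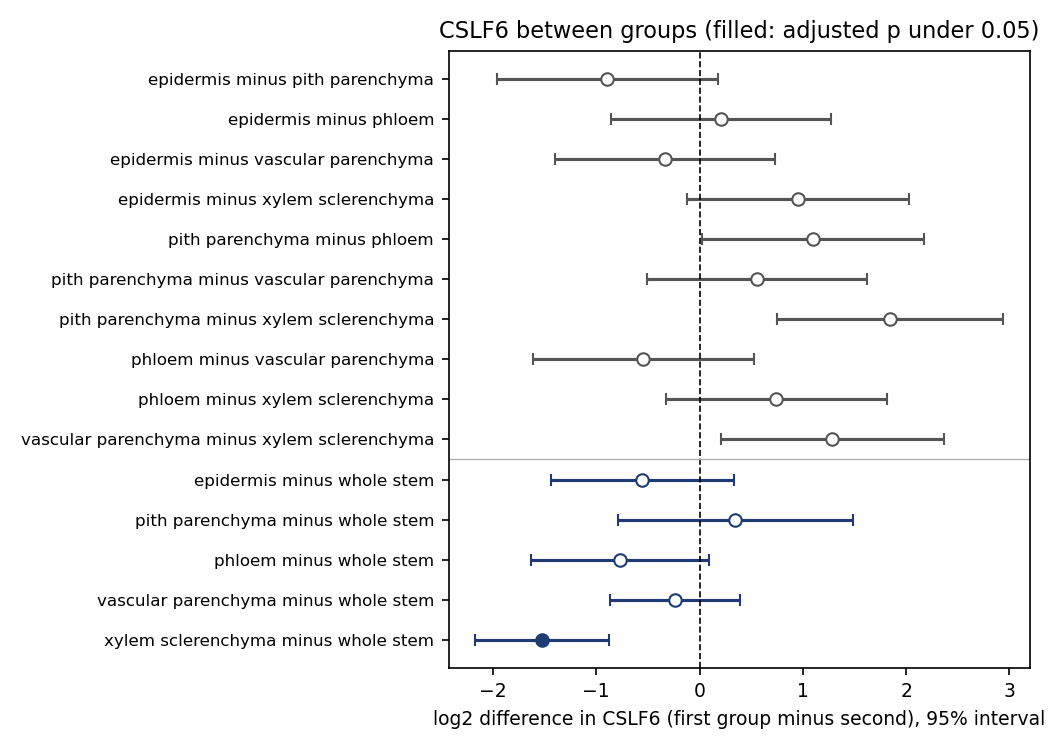
Log2 difference in CSLF6 for the 10 pairs of captured types (grey) and for each type minus whole stem (blue), with 95% intervals from edgeR's quasi-likelihood fit and filled points at an adjusted p under 0.05. Xylem sclerenchyma minus whole stem, at -1.52, is the filled point, and the widest difference between captured types is pith parenchyma minus xylem sclerenchyma, at 1.84.

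Other genes were ranked by how alike their pattern was to that of CSLF6 across the captured libraries. Likeness was measured as Pearson's r of log2 CPM over the 20 libraries, among 15613 genes that averaged 10 CPM or more in a captured type, and it is a description only. The libraries share depth and capture effects, and genes were ranked after the fact. The median gene had an r of -0.04, and 3 genes reached 0.7. The same count was not made for any other gene, so whether 3 is few was not tested. Without pith parenchyma replicate 2, 6 genes reached 0.7, and 6 of the 10 genes with the highest r stayed in the top 10.

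The most alike was Sobic.002G388600, with r = 0.84 (Spearman's rho 0.8) over the 20 captured libraries and r = 0.86 over all 24. It was at 228 CPM in pith parenchyma, 193 in epidermis, 157 in vascular parenchyma, 130 in phloem, 70.2 in xylem sclerenchyma and 256 in whole stem (means, n = 4). Like CSLF6 it had its lowest group mean in xylem sclerenchyma, and its highest library was pith parenchyma replicate 2, at 431 CPM. With pith parenchyma replicate 2 and xylem sclerenchyma replicate 3 left out, the libraries farthest from the CSLF6 median, r was 0.75. After each type's mean was subtracted it was 0.76, so the likeness was also present among libraries of a type. The gene was picked by its r over these same libraries, and no r between type means was computed.

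The next was Sobic.004G332000, with r = 0.73 over the captured libraries (Spearman's rho 0.76), 0.67 over all 24 and 0.65 without those same 2 libraries. Its type means lay close together, from 38.4 CPM in xylem sclerenchyma to 55.6 in phloem, with 40.1 in whole stem. Its likeness was higher within types, at r = 0.83, than over the type means and libraries together.

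**Figure D5:**
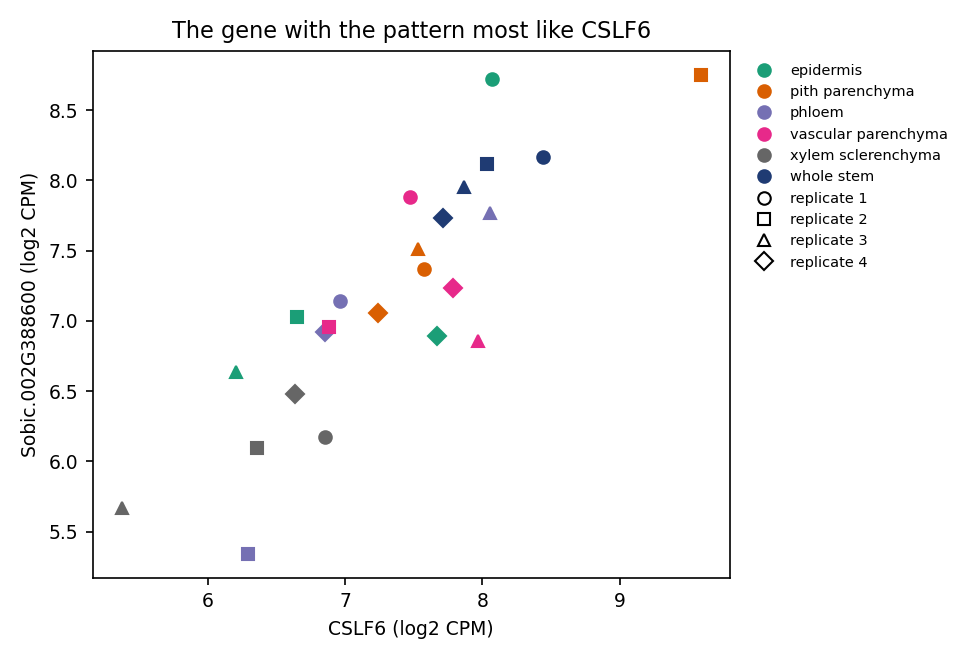
Log2 CPM of Sobic.002G388600 (vertical axis) against log2 CPM of CSLF6 (horizontal axis) in the 24 libraries, with colour for the group and marker shape for the replicate number. Over the 20 captured libraries r is 0.84, with the xylem sclerenchyma libraries at the lower left and pith parenchyma replicate 2 at the upper right.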

How the data were processed

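The authors' deposited table holds estimated counts (expected counts) per gene in 24 library columns, not scaled for depth or length, and 10.5% of its values are not whole numbers. Salmon made them, per the submitters' processing notes, which also name FastQC and alevin. Their versions, the genome build and the annotation: not given in the sources used here. Libraries were made with SMART-Seq v4 PLUS and read single-end at 150 bp, per the labels' protocols.

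CPM is the deposited count scaled to a library total of 1000000. For tests, counts were rounded and analysed in R 4.3.3 with edgeR 4.0.16 (filterByExpr, TMM, robust dispersions, quasi-likelihood F tests, Benjamini-Hochberg adjustment over all genes tested, threshold 0.05). The 20 captured libraries formed 1 fit, and each type with whole stem a fit of 8. The SE is the log2 difference divided by the square root of F. Log2 CPM used a prior count of 2. DESeq2 1.42.0 and limma 3.58.1 served as alternatives, besides other scaling, filtering, thinning, library subsets and an exact permutation test. Replicates of a group differed by more than sampling noise (mean chi-square per gene of at least 25.1).

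CSLF6 and the rules were chosen with earlier results of these data known. Of genes like CSLF6, at most 2 are printed, those with the highest r, because 0 of the identifiers matched the supplied gene table. Lists and markers defined by product name could not be built, and no sequence of CSLF6 was used here.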

Additional observations from a re-analysis of the deposited data

Results flagged for a closer look

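CSLF6 stood at 770 CPM in pith parenchyma replicate 2, far from the other 3 pith parenchyma libraries at 151 to 191 CPM. The gap to the nearest of them was 0.936 of the group's range, above Dixon's 95% critical value for 4 samples. For normally distributed values, chance takes about 1 of 20 groups past that critical value, and 6 groups were examined. The ratio was taken on CPM, not on log2 CPM, and normality was not tested. That library had 11193692 counts and 15420 genes above 1 CPM, within the range of the other pith parenchyma libraries (8247350 to 12740916 counts and 14639 to 16023 genes).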

How the results depend on the processing

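The F test across the 5 types stayed above the threshold in all alternatives, with adjusted p-values of 0.0516 (without the 3 libraries with few detected genes) to 0.524 (replicates 3 and 4 alone). Mean CPM moved by under 1 SD, a limit no omission could exceed.

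Xylem sclerenchyma minus whole stem kept its direction throughout, and its adjusted p was above 0.05 with the replicate block (-1.57, adjusted p 0.0684), in replicates 1 and 2 alone (-1.47), in replicates 3 and 4 alone (-1.58), in 1 fit of 24 libraries (-1.51) and in the exact permutation test (-1.71, adjusted p 0.143). The last was at the smallest p that 4 against 4 libraries allow before adjustment, and the sets hold 2 libraries per group. For the others the cause was not tested. The replicate block changed no other call. Pairing by number was not settled: 7 of 60 same-number correlations exceeded 0.1, and 11 of 24 libraries correlated best with their own number. Neither count was compared with the number expected by chance.

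Pith parenchyma minus xylem sclerenchyma passed with DESeq2 (1.84, adjusted p 0.0169), without the 3 libraries with few detected genes (1.84, 0.0311), after thinning (1.85, 0.0399) and in 1 fit of 24 libraries (1.8, 0.0283), and in no omission of 1 library (1.03 to 2.06). Phloem minus whole stem passed with limma voom (-1.18, adjusted p 0.0262) and without phloem replicate 3 (-1.26), which is the 1 of the 3 libraries with few detected genes in that fit. Over omissions it ran from -1.26 to -0.55. The cause was not tested.

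Uncalled differences changed sign as follows. Epidermis minus vascular parenchyma was 0.19 in replicates 1 and 2. In replicates 3 and 4, epidermis minus phloem was -0.36, pith parenchyma minus phloem -0.23, pith parenchyma minus vascular parenchyma -0.74, pith parenchyma minus whole stem -0.29 and vascular parenchyma minus whole stem 0.23. Pith parenchyma minus whole stem was -0.22 with limma voom and -0.030 in the exact permutation test. Over omissions of 1 library, epidermis minus phloem ran from -0.11 to 0.61 (negative without epidermis replicate 1 or 4 or phloem replicate 2 or 4), pith parenchyma minus vascular parenchyma from -0.25 to 0.77, and pith parenchyma minus whole stem from -0.49 to 0.55.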
